A study of Gallus gallus with 60 samples.

Results

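Chicken utricles treated with streptomycin were compared with control utricles at the 120 h and 144 h time points, late in a regeneration time course. The comparison rests on 12 of the 60 libraries of the series, which make up 10 of its 56 biological samples: 3 treated and 3 control samples at 120 h, and 2 treated and 2 control samples at 144 h. They were chosen by their labels alone. At 120 h the label of replicate 2 in each arm carries a second, decimal-numbered library, which was read as a repeat of the same sample and averaged with it on the log2 scale. The difference over both times is the mean of the 5 treated minus control differences between samples of the same number, and each time is also given separately.

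The tissue was the whole dissected utricle, exposed to streptomycin for 24 h and then left to recover, and RNA was sequenced after Illumina library preparation. Treated and control libraries exist at 11 time points from 0 to 168 h, and the labels do not state from which moment the hours run. They give no strain, age or sex of the birds, do not say what control utricles received, and do not say how many birds or utricles went into a sample. The p-values therefore measure the spread between samples as labelled. That spread was pooled over all 56 samples of the series and was not taken from these 10 alone. The question was how expression in the damaged organ still differs from control late in the time course.

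The utricle is a vestibular organ in which hair cells, the mechanoreceptors that carry a bundle of actin-filled stereocilia on their apical surface, sit among supporting cells. Streptomycin is an aminoglycoside antibiotic that kills hair cells. In birds, supporting cells replace lost hair cells, either by dividing or by changing directly into hair cells, and the transcription factor ATOH1 starts the hair cell programme. Cells that take up the hair cell fate display Notch ligands such as DLL1, and Notch signalling in their neighbours switches on repressors of the HES family that hold those neighbours in the supporting cell state.

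Depth at 120 h was 2786632 to 26431074 alignments per library and at 144 h 23286687 to 28285478. Control replicate 1 of 120 h was the only library of these 12 under 5000000 alignments, so its low values are coarse. Both arms expressed genes that define the labelled tissue: the 12 hair cell markers summed to 1200 to 1760 RPKM (reads per transcript length, relative to library size) in control samples of 120 h, and the 9 supporting cell markers tested summed to 865 to 1400 RPKM there. Erythroid markers were near the limit of detection at 120 h (5 tested, summed 1.57 to 5.44 RPKM over both arms) and reached 33.1 RPKM in 1 treated sample of 144 h. Differences below are treated minus control on the log2(RPKM + 0.5) scale, ± the standard error (SE) of limma's linear model. P-values come from limma with Benjamini-Hochberg adjustment across the 13862 rows tested, and a row was called below 0.05. A blocked adjusted p comes from a fit that also pairs samples of the same number, and is given where it changes a call.

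Over 120 and 144 h, 493 of the 13862 rows differed between treated and control (3.56%), of which 190 were higher in treated samples (1.37%) and 303 were lower (2.19%). In 475 of the 493 all 5 pairs differed in the same direction. Rows that fell had the larger changes: 222 were lower by at least 1 log2 unit and 70 were higher by that much. With samples paired by number the fit called 1085 rows (7.83%), 551 higher (3.97%) and 534 lower (3.85%), and 486 of the 493 were among them. These shares are the background for the blocked counts over both times given below. The unpaired count of 493 became 323 without treated replicate 2 of 120 h and 314 without treated replicate 1 of 144 h. With the spread taken from the samples of 120 and 144 h alone, 269 rows were called, 243 of them among the 493. The median difference over all rows tested was 0.06, and the 5 treated samples lay above the 5 controls without overlap in 2.61% of rows and below them in 2.58%.

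**Figure D1:**
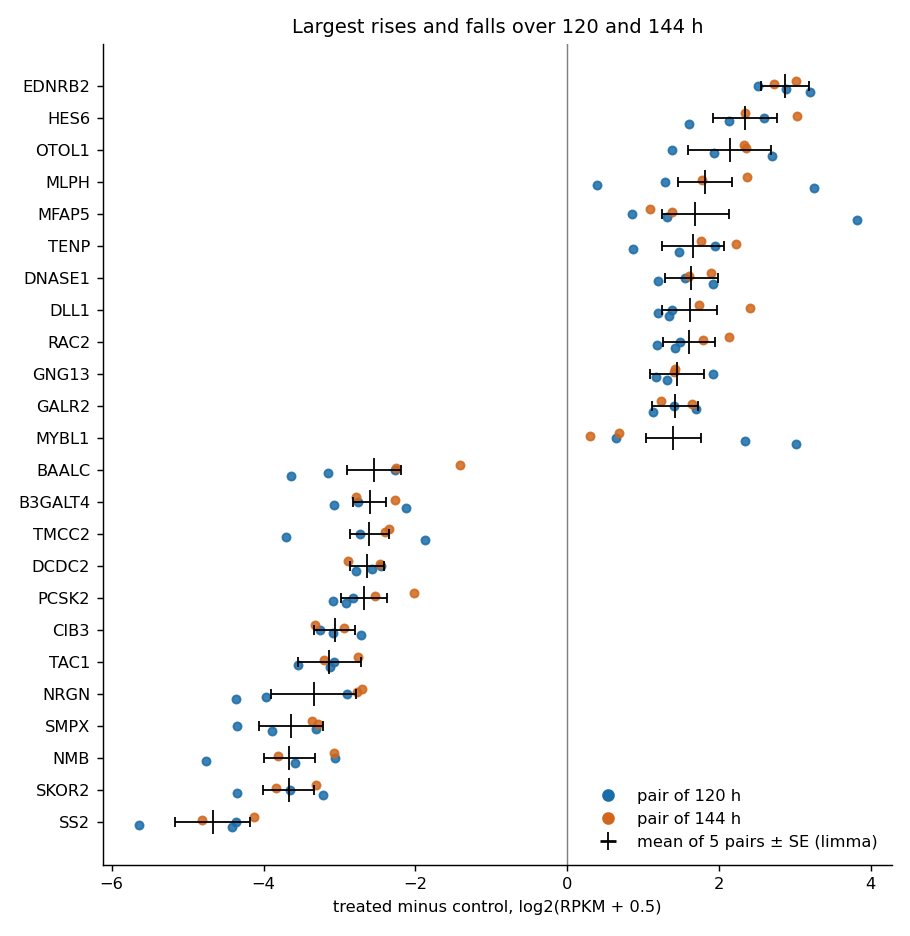
Treated minus control difference, log2(RPKM + 0.5), of the 12 named genes with the largest rise and the 12 with the largest fall over 120 and 144 h. Points are the 5 pairs (blue, 120 h, and orange, 144 h) and bars are limma's mean ± SE. Means run from EDNRB2 at 2.87 to SS2 at −4.67. Genes were shown only if all 5 pairs lay on one side of 0.

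Transcripts of mature hair cells were lower in treated utricles. Of 12 hair cell markers, 9 were lower in treated samples and none was higher (background of rows called lower, 2.19%), with a list median of −1.36. In treated samples these markers summed to 429 to 566 RPKM at 120 h and 357 to 510 RPKM at 144 h, below the control ranges of 1200 to 1760 and 968 to 1290 RPKM. In bulk tissue, fewer hair cells and less RNA per hair cell cannot be told apart. The 3 markers that did not pass the test were ATOH1, POU4F3 and MYO6.

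Genes of peptide signalling were among the 12 named genes with the largest falls. SS2, which encodes a somatostatin-family peptide, measured 100, 174 and 40.3 RPKM in control replicates 1 to 3 of 120 h against 4.24, 2.99 and 1.48 RPKM in treated ones, and 85.7 and 30.3 RPKM against 2.57 and 1.26 RPKM at 144 h. Each treated value lay below each control value, and the difference was −4.67 ± 0.49, a level 25.5-fold lower (limma adjusted p = 1.09e-08). NMB, the gene of the peptide neuromedin B, had 36.5, 47.1 and 16.8 RPKM in controls and 2.57, 1.26 and 1.58 RPKM in treated samples of 120 h, and 22.9 and 14.0 RPKM against 1.17 and 1.22 RPKM at 144 h. The arms did not overlap, and NMB was lower by 12.6-fold (−3.66 ± 0.34, limma adjusted p = 6.64e-10). TAC1, the precursor of the tachykinins, was at 3.84, 7.47 and 6.63 RPKM in controls of 120 h and at 0.35 RPKM or less in all 5 treated samples (−3.14 ± 0.41, limma adjusted p = 1.12e-06). PCSK2, a protease that cuts peptide precursors, fell by 2.68 on the log2 scale (limma adjusted p = 4.86e-08).

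Genes of the hair bundle and mechanotransduction were lower in 16 of the 43 members tested and higher in none (background lower 2.19%), with a median of −0.77. Blocked, 23 were lower. Without libraries under 5000000 alignments 19 were lower, where 375 of all 13862 rows were. SMPX, a small muscle-type protein found in stereocilia in mammals, had 6.9, 13.5 and 15.9 RPKM in controls of 120 h and was listed at 0, 0.921 and 0.301 RPKM in treated samples, with 11.2 and 16.6 RPKM against 0.698 and 1.17 RPKM at 144 h. Treated samples were all lower, by 3.64 ± 0.42 on the log2 scale (limma adjusted p = 8.33e-08). CIB3, a calcium-binding partner of the transduction channel, had 16.3, 24.3 and 31.5 RPKM in controls and 2.07, 2.43 and 2.84 RPKM in treated samples of 120 h, and 19.0 and 27.9 RPKM against 2.04 and 2.34 RPKM at 144 h. Its values in treated samples were close together and apart from controls (−3.06 ± 0.27, limma adjusted p = 1.24e-10). The chloride channel-like protein CLIC5, which sits at the stereocilium base, was lower by 2.49 ± 0.40, and the actin cross-linker FSCN2 had a difference of −2.22.

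The molecular motors and the channel itself had smaller differences than SMPX and CIB3. MYO7A, the Usher syndrome myosin, measured 23.4, 27.3 and 25 RPKM in controls of 120 h against 8.51, 8.93 and 10.9 RPKM in treated samples, and 19.6 and 22.5 RPKM against 9.31 and 9.16 RPKM at 144 h. The arms were apart, and the level was 2.43-fold lower (−1.28 ± 0.23, limma adjusted p = 2.36e-04). MYO15A (−1.38), MYO3B (−1.14), the scaffold gene USH1G (−1.62) and the receptor phosphatase gene PTPRQ (−1.37) also fell. TMC2, a subunit of the transduction channel, had a difference of −1.29 ± 0.22 (limma adjusted p = 7.64e-05). For its relative TMC1 the difference was −0.83 ± 0.29 (limma adjusted p = 0.126, blocked adjusted p = 0.0369). ESPN, the actin bundler espin, was lower by 1.61 ± 0.38 on the log2 scale (limma adjusted p = 0.0079). Its call was lost without control replicate 1 or treated replicate 2 of 144 h (adjusted p = 0.0513 to 0.0725).

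The hair cell synapse, with its channels and calcium buffers, was the list with the lowest median (−1.4), with 14 of 28 members lower and none higher (background lower 2.19%). Blocked, 17 were lower. OTOF, the calcium sensor for transmitter release, measured 217, 344 and 255 RPKM in controls of 120 h and 75, 62.4 and 75.6 RPKM in treated samples, and 230 and 175 RPKM against 68.3 and 56.2 RPKM at 144 h. Treated samples lay far below controls at both times, with a 3.53-fold lower level (−1.82 ± 0.21, limma adjusted p = 6.03e-08). SLC17A8, which loads glutamate into synaptic vesicles, was lower by 2.12 ± 0.24 (limma adjusted p = 7.46e-08), and the calcium-binding protein gene CABP1 by 2.22 ± 0.27. The pore subunit gene of the synaptic calcium channel, CACNA1D (−1.56), the efferent acetylcholine receptor gene CHRNA9 (−1.85) and the potassium channel gene KCNMA1 (−1.41) fell as well. Among calcium buffers, CALB2 had 455, 671 and 336 RPKM in controls of 120 h against 137, 110 and 87.0 RPKM in treated samples, and 463 and 256 RPKM against 119 and 74.2 RPKM at 144 h. It was 4.0-fold lower with no overlap (limma adjusted p = 1.06e-05). OCM2, the oncomodulin-type buffer, was lower by 1.64 ± 0.20, and NRGN, a calmodulin-binding protein, by 3.34 ± 0.56.

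Further falls of similar size were found in genes outside the hair cell lists. B3GALT4, a galactosyltransferase of glycolipid synthesis, had 25, 45.7 and 34.4 RPKM in controls of 120 h against 5.37, 4.97 and 4.66 RPKM in treated samples, and 37.5 and 29.4 RPKM against 7.35 and 3.85 RPKM at 144 h. The arms were apart, and the level was 6.07-fold lower (−2.60 ± 0.21, limma adjusted p = 3.94e-11). DCDC2, a doublecortin-domain protein of primary cilia, measured 15.7, 18.5 and 11.9 RPKM against 1.84, 2.7 and 1.76 RPKM at 120 h and 8.49 and 12.5 RPKM against 1.13 and 1.26 RPKM at 144 h. It was lower without overlap (−2.63 ± 0.23, limma adjusted p = 1.03e-10). TMCC2, a transmembrane coiled-coil protein gene, ranged from 73.9 to 215 RPKM in the 5 controls and from 14.2 to 27.8 RPKM in the 5 treated samples (−2.61 ± 0.26, limma adjusted p = 2.43e-09). BAALC, a gene of neuroectoderm-derived tissues in mammals, ranged from 10.8 to 33.8 RPKM and from 1.17 to 3.72 RPKM (−2.54 ± 0.36, limma adjusted p = 3.75e-06).

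**Figure D2:**
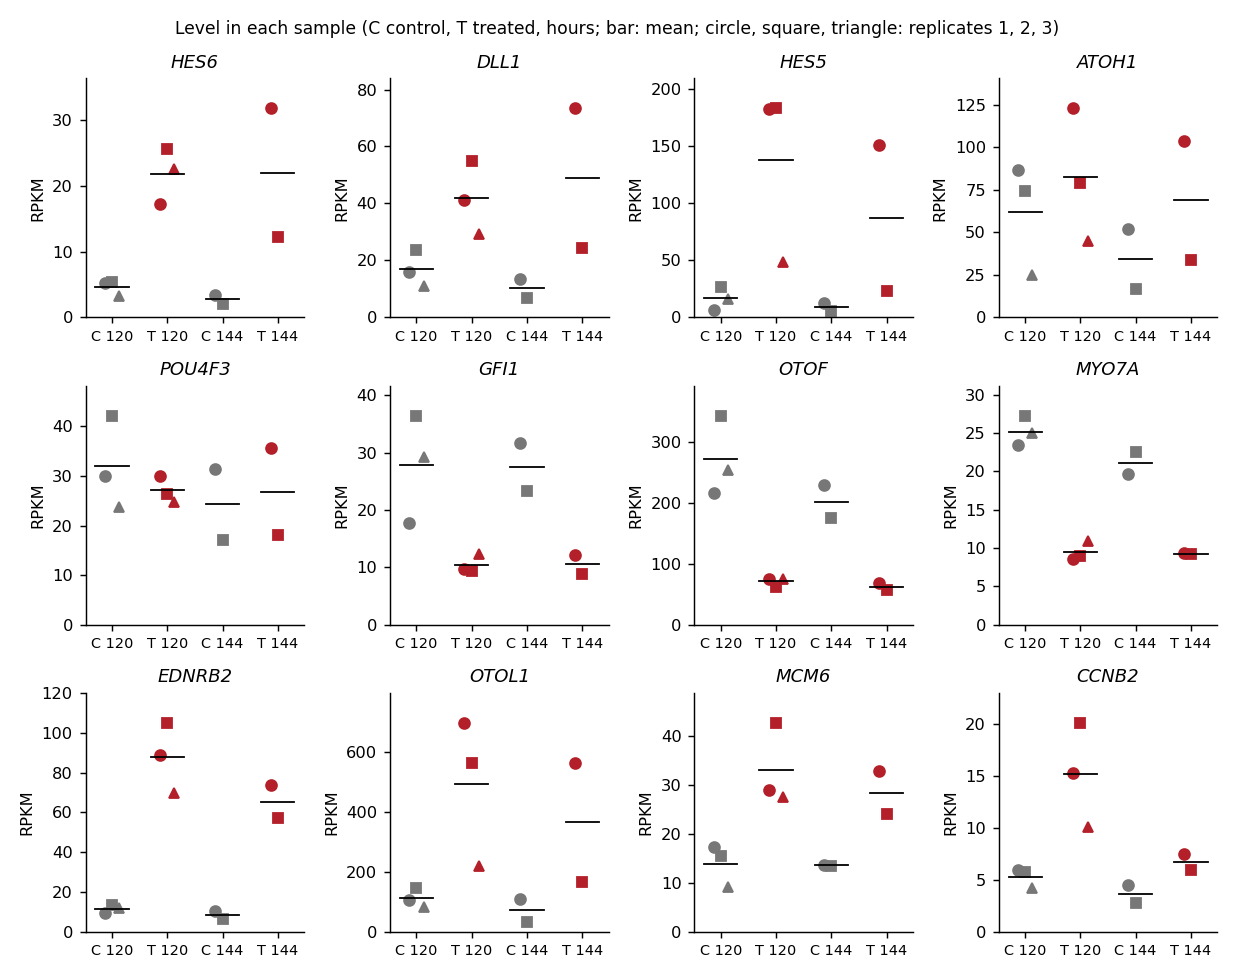
RPKM of 12 genes in each sample of 120 and 144 h (grey, control; red, treated; bars, group means; each axis starts at 0). OTOF, MYO7A and GFI1 are lower in all treated samples, HES6, DLL1, EDNRB2, OTOL1, MCM6 and CCNB2 are higher in all of them, and ATOH1, POU4F3 and HES5 overlap between arms.

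In the list drawn up for early hair cell fate, HES6 and DLL1 were higher and TMPRSS3 was lower of 15 members tested (background called in either direction 3.56%), and the median was 0.43. Blocked, 3 were higher and 3 lower. HES6, which in other vertebrates acts downstream of ATOH1 and opposes other HES repressors, had 5.30, 5.43 and 3.32 RPKM in controls of 120 h and 17.2, 25.6 and 22.6 RPKM in treated samples, and 3.46 and 2.02 RPKM against 31.8 and 12.2 RPKM at 144 h. All treated samples exceeded all controls, and the level was 5.07-fold higher (2.34 ± 0.42, limma adjusted p = 2.62e-04). TMPRSS3, though on this list, is a membrane protease needed for hair cell survival in mammals, and had a difference of −1.28.

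ATOH1 itself had 86.7, 74.2 and 25.2 RPKM in controls of 120 h and 123, 79.1 and 45.0 RPKM in treated samples, and 52.2 and 16.8 RPKM against 104 and 34.0 RPKM at 144 h. Treated samples were higher in 5 of 5 pairs, but the arms overlapped and the spread between replicates was wide (0.68 ± 0.49, limma adjusted p = 0.59, blocked adjusted p = 0.0549). It passed in 1 of 28 alternatives, the paired fit of the samples of 120 and 144 h alone (limma adjusted p = 0.0322). POU4F3, a hair cell factor downstream of ATOH1, measured 29.9, 42.2 and 23.8 RPKM against 30, 26.4 and 24.8 RPKM at 120 h, and 31.5 and 17.1 RPKM against 35.6 and 18.0 RPKM at 144 h. Its ranges largely coincided (−0.07 ± 0.27, limma adjusted p = 0.953). GFI1, a repressor that maintains hair cells, had 17.7, 36.5 and 29.2 RPKM in controls against 9.78, 9.27 and 12.3 RPKM in treated samples of 120 h, and 31.7 and 23.3 RPKM against 12.2 and 8.76 RPKM at 144 h. It fell without overlap (−1.33 ± 0.20, limma adjusted p = 1.80e-05). SKOR2, a transcriptional corepressor known from Purkinje neurons in mice, was 12.7-fold lower (−3.67 ± 0.34, limma adjusted p = 4.38e-10). For LHX3 the difference was −0.73 ± 0.28 (limma adjusted p = 0.181, blocked adjusted p = 0.0173). In all, 1 of 17 hair cell transcription factors tested was higher (background 1.37%) and 2 were lower (background 2.19%), and blocked 2 were higher and 4 lower.

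The Notch list had 2 members higher and 1 lower of 35 tested (background in either direction 3.56%), with a median of 0.20. Blocked, 6 were higher and 2 lower. The ligand DLL1 had 16, 23.7 and 10.9 RPKM in controls of 120 h against 41.3, 55.0 and 29.2 RPKM in treated samples, and 13.4 and 6.93 RPKM against 73.4 and 24.3 RPKM at 144 h. Each treated value was above each control value (1.61 ± 0.36, limma adjusted p = 0.00453). The call was lost without treated replicate 1 of 144 h (1.30, adjusted p = 0.067). DNER, a neuronal Notch ligand-like protein, fell by 1.30 on the log2 scale with no overlap (limma adjusted p = 8.33e-08).

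HES5, a repressor induced by Notch, ranged widely within both arms. Controls of 120 h measured 6.57, 26.7 and 16.1 RPKM and treated samples 182, 183 and 48.6 RPKM, and the values were 12.5 and 5.49 RPKM against 151 and 23.0 RPKM at 144 h. Treated samples were higher in all 5 pairs, while treated replicate 2 of 144 h lay below control replicate 2 of 120 h. The difference of 2.91 ± 0.92 missed the threshold (limma adjusted p = 0.0732, blocked adjusted p = 1.01e-04). The ligands JAG1 (0.23, limma adjusted p = 0.556) and JAG2 (0.50, adjusted p = 0.27) did not pass. LFNG, the glycosyltransferase that tunes Notch receptors, had a difference of 0.62 ± 0.24 (limma adjusted p = 0.175, blocked adjusted p = 0.0464).

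Among 29 supporting cell genes, EDNRB2 was higher and none was lower (background in either direction 3.56%), with a median of 0.32. Blocked, 9 were higher. EDNRB2 encodes an endothelin receptor known in birds from pigment cell precursors. It had 9.23, 13.7 and 11.8 RPKM in controls of 120 h and 88.9, 105 and 69.8 RPKM in treated samples, and 10.7 and 6.62 RPKM against 73.5 and 57.2 RPKM at 144 h. The arms were separated by a wide margin, and EDNRB2 had the largest rise among the genes named here by size of change (7.31-fold, 2.87 ± 0.32, limma adjusted p = 3.94e-08). In the melanocyte marker list of 10, which also holds EDNRB2, 2 further entries passed (background in either direction 3.56%), and blocked 4 were higher and 1 lower (blocked background in either direction 7.83%). MLPH, a transport adaptor of melanosomes, had 0.205, 0.591 and 0.758 RPKM in controls of 120 h against 6.19, 0.927 and 2.57 RPKM in treated samples, and 1.7 and 0.91 RPKM against 7.03 and 6.78 RPKM at 144 h. The arms overlapped through 1 treated sample (1.81 ± 0.36, limma adjusted p = 8.65e-04). All 5 pairs were higher, which the rule for naming the largest rises required. The MLPH call was lost in fits of the samples of 120 and 144 h alone, paired or not (adjusted p up to 0.0647). GPNMB, a melanosome and macrophage glycoprotein, was lower (−1.47 ± 0.33). KIT, also on that list, had a difference of 0.90 (limma adjusted p = 0.0783, blocked adjusted p = 0.0324). Summed melanocyte markers ranged from 201 to 239 RPKM in controls and 325 to 363 RPKM in treated samples of 120 h. Most of this sum was EDNRB2 and SOX10, which the supporting cell list also holds. SOX10 differed by 0.59 over both times (limma adjusted p = 0.252). It passed in 2 of 28 alternatives, the paired fits of all samples and of those of 120 and 144 h alone. Across the alternatives the SOX10 difference ran from 0.45 to 0.74. In the libraries of replicate 2 of 120 h, only 1 of the 5 pairs, SOX10 was at 157 RPKM in both controls and at 172 and 187 RPKM in treated ones. The part of melanocytes in these differences was not tested.

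The list drawn up for otoconial and tectorial matrix had a median of 0.54 over 15 members, not all of which encode matrix proteins. Of these, OTOL1 was higher (background higher 1.37%) and none was lower. Blocked, 5 were higher. OTOL1, a collagen-like protein of otoconia made by supporting cells, measured 107, 147 and 83.3 RPKM in controls of 120 h and 697, 563 and 219 RPKM in treated samples, and 109 and 32.9 RPKM against 562 and 167 RPKM at 144 h. Treated samples were all higher, from 167 to 697 RPKM (2.14 ± 0.55, limma adjusted p = 0.0167). The call was lost without any 1 of control replicate 3 or treated replicate 1 or 2 of 120 h, or control replicate 2 or treated replicate 1 of 144 h (1.79 to 2.03, adjusted p = 0.0537 to 0.133). The connexin gene GJB6 had 100, 225 and 145 RPKM against 226, 575 and 309 RPKM at 120 h and 117 and 145 RPKM against 277 and 241 RPKM at 144 h. Its arms were apart only by 225 against 226 RPKM, and the 2 libraries averaged to that control value were at 236 and 214 RPKM. The GJB6 difference was 1.11 ± 0.35 (limma adjusted p = 0.0723, blocked adjusted p = 0.00172). The tectorial protein gene TECTB (0.95, limma adjusted p = 0.0595, blocked adjusted p = 0.0454) and the matrix gene COCH (1.03, limma adjusted p = 0.0622, blocked adjusted p = 0.0218) were similar in size. SOX2, which marks supporting cells and progenitors, had a difference of 0.32 ± 0.32 (limma adjusted p = 0.733).

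**Figure D3:**
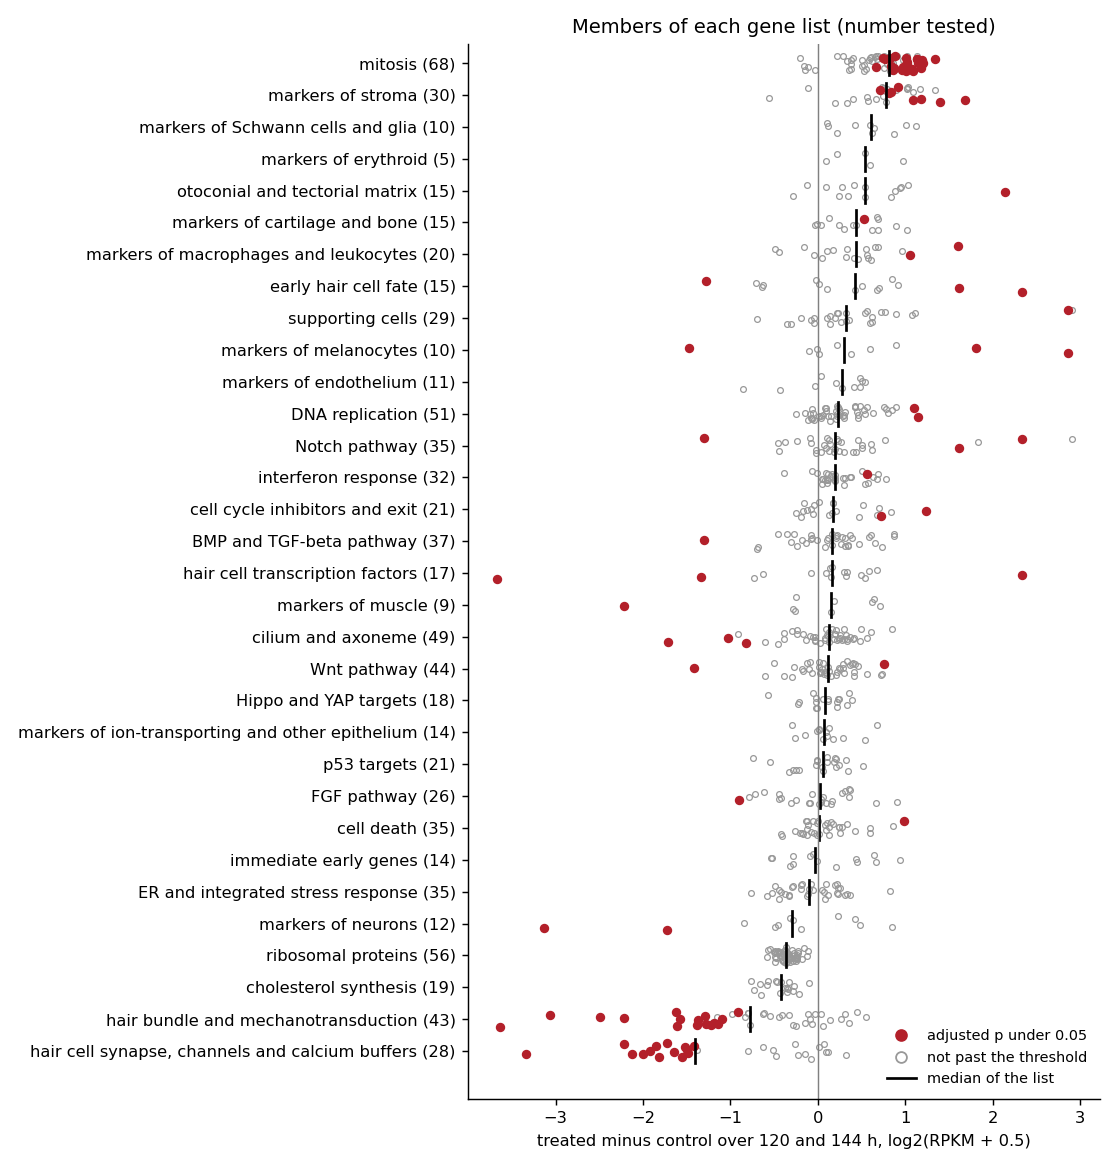
Treated minus control difference over 120 and 144 h, log2(RPKM + 0.5), of each member of the gene and marker lists, sorted by list median (black line). Red points passed the threshold. The marker lists of hair cells and of supporting cells are not shown. Medians run from 0.81 for mitosis to −1.4 for the hair cell synapse list.

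Genes of cell division were higher in treated utricles. Of 68 mitosis genes, 27 were higher and none was lower (background higher 1.37%), with a median of 0.81. Without libraries under 5000000 alignments 39 were higher, where 246 of all 13862 rows were. In a fit of the samples of 120 and 144 h alone 15 were, where 69 of all rows were. CCNB2, a cyclin of mitotic entry, had 5.91, 5.76 and 4.17 RPKM in controls of 120 h against 15.3, 20.1 and 10.1 RPKM in treated samples, and 4.46 and 2.75 RPKM against 7.47 and 5.99 RPKM at 144 h. Each treated value exceeded each control value (1.18 ± 0.22, limma adjusted p = 4.64e-04), narrowly at 5.99 against 5.91 RPKM. Before averaging, the libraries of control replicate 2 of 120 h were at 5.14 and 6.45 RPKM. FOXM1, a transcription factor of the mitotic programme, differed by 1.2 ± 0.22, and RACGAP1, needed for cytokinesis, by 1.34. The kinase gene CDK1 (1.19), the spindle factor gene TPX2 (1.08) and HMGB2 (0.86), which encodes a chromatin protein of dividing cells, rose too.

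Of 51 DNA replication genes, 2 were higher and none was lower (background higher 1.37%), with a median of 0.24, and blocked 6 were higher. MCM6, a subunit of the replicative helicase, had 17.3, 15.4 and 9.18 RPKM in controls of 120 h against 28.8, 42.6 and 27.5 RPKM in treated samples, and 13.7 and 13.4 RPKM against 32.7 and 24.0 RPKM at 144 h. The arms were apart at both times (1.15 ± 0.17, limma adjusted p = 8.98e-06). RRM2, a subunit of ribonucleotide reductase, was higher by 1.10 ± 0.32 (limma adjusted p = 0.0408), a call lost when any 1 of 8 samples was left out, the exceptions being control replicate 1 and treated replicate 3 of 120 h (adjusted p = 0.056 to 0.213). PCNA, the sliding clamp, had a difference of −0.07 ± 0.14 (limma adjusted p = 0.897). Of 21 cell cycle regulators, the cyclin gene CCND3 (1.24 ± 0.24, limma adjusted p = 7.03e-04) and the antiproliferative gene BTG1 (0.72) were higher (background higher 1.37%, blocked 3). BTG1 lost its call without control replicate 1 or 2 or treated replicate 2 of 120 h, or without either control or treated replicate 1 of 144 h (adjusted p = 0.0579 to 0.136). CDKN1B, the cell cycle inhibitor of postmitotic supporting cells in mammals, differed by −0.19 (limma adjusted p = 0.588).

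Stromal genes were also higher in treated samples, in 8 of 30 members with none lower (background higher 1.37%) and a median of 0.78. With samples paired 15 were higher and 1 lower. A fit of the samples of 120 and 144 h alone called 1, where 269 of all 13862 rows were called. Equal weights for both times called 2, where 384 of all rows were called. FBN1 (0.71), a microfibril protein gene, COL5A2 (0.84), a fibrillar collagen gene, POSTN (0.92), which encodes a matrix protein of connective tissue, and FAP (0.82 ± 0.21), a surface protease gene of activated fibroblasts, were among them. None of these calls held under every omission of 1 sample. COL5A2 was lost without control replicate 3 or treated replicate 1 of 120 h, or without control replicate 2 or treated replicate 1 of 144 h (adjusted p = 0.0577 to 0.117). POSTN was lost without control replicate 2 or 3 or treated replicate 3 of 120 h, or without either control or treated replicate 2 of 144 h (0.051 to 0.0859). FAP was lost without control replicate 3 or treated replicate 2 of 120 h, or without either control or treated replicate 2 of 144 h (0.051 to 0.111). FBN1 was lost without replicate 1 of either arm at 120 h or replicate 2 of either arm at 144 h (0.0513 to 0.0983). MFAP5, a microfibril protein, was listed at 0 in control replicate 1 of 120 h, the shallowest library. Its rise (1.69 ± 0.45, limma adjusted p = 0.0202) lost its call without that sample, without treated replicate 2 of 120 h, or without control replicate 2 or treated replicate 1 of 144 h (1.15 to 1.53, adjusted p = 0.0916 to 0.171). Summed stromal markers overlapped between arms, at 1720 to 3670 RPKM in controls and 2040 to 4140 RPKM in treated samples of 120 h, and 2240 to 4150 against 2230 to 2930 RPKM at 144 h. The list member VIM was a large part of this sum. In replicate 2 of 120 h it was at 2040 and 2300 RPKM in control libraries and at 990 and 950 RPKM in treated ones. The sums therefore do not show how the other members moved. COL1A1 varied more between replicates than between arms (1.03 ± 0.84, limma adjusted p = 0.646). Whether dividing cells were in the epithelium or the stroma was not tested.

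Of 20 leukocyte markers, the signalling GTPase gene RAC2 (1.60 ± 0.34) and LY86 (1.05 ± 0.23), which encodes a partner of a Toll-like receptor relative, were higher with overlapping arms (background higher 1.37%). Blocked, 5 of the 20 were higher and 1 was lower. RAC2 had 2.3, 0.612 and 1.34 RPKM in controls of 120 h against 6.99, 2.03 and 4.67 RPKM in treated samples, and 2.27 and 1.24 RPKM against 9.11 and 7.17 RPKM at 144 h. All 5 of its pairs were higher, which the rule for naming the largest rises required (limma adjusted p = 0.00218). PTPRC, the pan-leukocyte marker, was at 0.368 to 1.29 RPKM over the samples of 120 h (0.33, limma adjusted p = 0.417). The summed leukocyte list spanned 121 to 237 RPKM in controls and 172 to 194 RPKM in treated samples of 120 h, and 139 to 211 against 189 to 279 RPKM at 144 h. No member of the endothelial (11 tested), erythroid (5), Schwann cell (10) or ion-transporting epithelium (14) lists passed limma's test, while 2, 1, 4 and 0 of them had an unadjusted p under 0.05. Over all 13862 rows tested, 2016 had an unadjusted limma p under 0.05. Blocked, 1 endothelial gene was lower and 2 Schwann cell genes were higher. The neuron list had 2 lower of 12 (background lower 2.19%, blocked 3), TAC1 and SNAP25, a vesicle fusion protein that the hair cell synapse list also holds. TNNC2, a troponin C, was the 1 muscle gene of 9 to pass, against a background of 2.19% lower (−2.22 ± 0.36, limma adjusted p = 3.96e-05). COL11A1 was the 1 cartilage gene of 15 to pass (0.53, background higher 1.37%), where 3 were higher when blocked (blocked background higher 3.97%). COL11A1 lost its call without control replicate 1 or treated replicate 2 or 3 of 120 h, or without replicate 1 of either arm at 144 h (adjusted p = 0.0592 to 0.103).

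Among the 12 named genes with the largest rises, 5 belonged to none of the lists. DNASE1, a secreted nuclease, had 6.32, 13.3 and 6.23 RPKM in controls of 120 h against 25.3, 31.1 and 19.3 RPKM in treated samples, and 12.7 and 4.64 RPKM against 39.9 and 18.7 RPKM at 144 h. Treated samples exceeded all controls (1.64 ± 0.35, limma adjusted p = 0.00257). GALR2, a galanin receptor, was at 0.548 to 1.38 RPKM in the 5 controls and at 1.96 to 5.38 RPKM in the 5 treated samples (1.42 ± 0.31, limma adjusted p = 0.00283). GNG13, a G protein gamma subunit, was at 2.31 to 4.45 RPKM and at 7.0 to 11.9 RPKM (1.44 ± 0.36, limma adjusted p = 0.0113), and its call was lost without control replicate 3 of 120 h (adjusted p = 0.0511). TENP, a gene of a BPI family protein found in avian egg white, differed by 1.66 ± 0.41 (limma adjusted p = 0.0107). Its call was lost without control replicate 3 of 120 h, or without control replicate 2 or treated replicate 1 of 144 h (adjusted p = 0.0508 to 0.108). MYBL1, a transcription factor of the MYB family, had 0.143, 0.548 and 0.64 RPKM against 4.71, 4.82 and 1.28 RPKM at 120 h and 0.896 and 0.515 RPKM against 1.23 and 1.14 RPKM at 144 h. Its treated samples were all higher, with the 2 highest at 120 h (1.4 ± 0.36, limma adjusted p = 0.0179), and the call was lost without control or treated replicate 1 or treated replicate 2 of 120 h, or without control replicate 2 or treated replicate 1 of 144 h (adjusted p = 0.0613 to 0.0917).

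Single members of signalling pathways passed the test. BMP2, a secreted growth factor, measured 7.47, 14.3 and 13.3 RPKM in controls of 120 h against 3.32, 3.82 and 4.16 RPKM in treated samples, and 12.6 and 9.15 RPKM against 5.33 and 4.61 RPKM at 144 h. It fell without overlap (−1.30 ± 0.18, limma adjusted p = 3.27e-06) and was the 1 member of 37 called in the BMP and TGF-beta list (background in either direction 3.56%). In that list 4 were higher and 1 lower when blocked (blocked background in either direction 7.83%). RSPO3, a secreted enhancer of Wnt signalling, fell by 1.41 on the log2 scale (limma adjusted p = 0.00925), a call lost without control replicate 1 of 144 h (−1.30, adjusted p = 0.0502). Among 26 FGF pathway genes 1 was lower (background lower 2.19%), and 3 when blocked (blocked background lower 3.85%). This was ETV4, a transcription factor gene induced by FGF (−0.91 ± 0.22, limma adjusted p = 0.00925), and its call was lost without treated replicate 2 of 120 h or control replicate 1 of 144 h (adjusted p = 0.0681 to 0.0895). FGF20, a ligand required for sensory cells in the mouse cochlea, differed by 0.91 ± 0.42 (limma adjusted p = 0.296). In the Wnt list of 44, with 2 called (background in either direction 3.56%), the receptor gene FZD4 was the other call (0.76). It was lost when any 1 of 6 samples was left out: replicate 2 of either arm or control replicate 3 at 120 h, or control replicate 2 or either treated replicate at 144 h (adjusted p = 0.0537 to 0.248). The paired fit called 4 of the Wnt list higher and 1 lower (blocked background in either direction 7.83%).

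The cilium list of 49 had a median of 0.13, and 3 members fell (background lower 2.19%): HYDIN (−1.71 ± 0.21, limma adjusted p = 3.02e-07), ARMC4 (−1.03) and DNAH5 (−0.82), which act in motile cilia of other vertebrates. Blocked, 5 were lower and 6 were higher. DNAH5 was lost when any 1 of 7 samples was left out, the exceptions being control replicates 1 and 2 of 120 h and control replicate 1 of 144 h (adjusted p = 0.0559 to 0.212). None of the Hippo (18), ER stress (35), cholesterol synthesis (19), immediate early (14), p53 target (21) or ribosomal protein (56) genes passed limma's test, and 3, 4, 7, 0, 0 and 20 of them in that order had an unadjusted p under 0.05. The background for these unadjusted counts is 2016 of the 13862 rows tested. Cholesterol synthesis genes had a median of −0.42 and ribosomal protein genes −0.36, and blocked 3 and 17 of them were lower, respectively, as were 2 p53 target genes. Under trimmed-mean scaling 3 ribosomal protein genes were lower, where 348 of all 13862 rows were. In the cell death list, HMOX1, a heme oxygenase induced by oxidative stress, was the 1 call of 35 (background higher 1.37%). Its difference was 0.99 ± 0.25 (limma adjusted p = 0.013), a call lost without control replicate 2 or treated replicate 1 of 144 h (adjusted p = 0.0613 to 0.0799). In that list 4 were higher and 1 lower when blocked (blocked background 3.97% higher and 3.85% lower).

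At 120 h alone, 369 rows were called (2.66%), 133 higher (0.959%) and 236 lower (1.7%), and blocked 920. At 144 h alone 72 were called (0.519%), 3 higher (0.0216%) and 69 lower (0.498%), and blocked 119. All 72 were also called at 120 h, in the same direction. The 144 h comparison has 2 samples per arm, and its count fell to 18 to 29 without any 1 of its 4 samples. No row passed the test of the difference between the effects at 144 and 120 h, by limma with or without the pairing. An unadjusted p under 0.05 was found in 164 rows without the pairing and in 476 with it. Both counts are below a share of 0.05 of the rows tested, which the absence of any effect would give. Of the mitosis genes, 28 were called higher at 120 h (background higher 0.959%), with a median of 1.12, and none at 144 h (background higher 0.0216%), where 2 were higher at an unadjusted p under 0.05, with a median of 0.31. Over all 13862 rows, 485 had an unadjusted limma p under 0.05 at 144 h, in either direction. For FOXM1 the difference was 1.72 at 120 h and 0.43 at 144 h. Of the hair cell synapse genes, 12 were lower at 120 h (background lower 1.7%) and 7 at 144 h (background lower 0.498%), with medians of −1.46 and −1.18. EDNRB2 had the same difference at each time, 2.87 and 2.87.

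**Figure D4:**
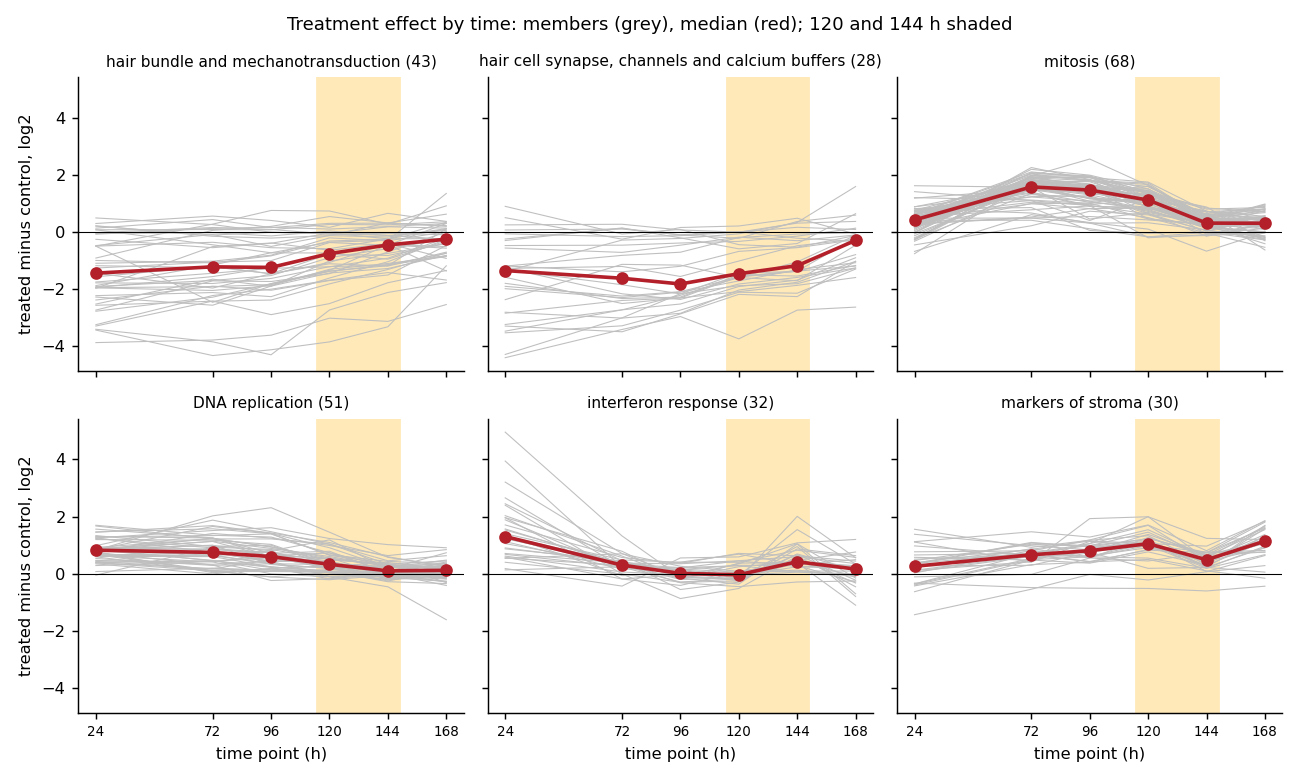
Treated minus control difference, log2(RPKM + 0.5), at 24, 72, 96, 120, 144 and 168 h for the members of 6 lists (grey) and their median (red), with 120 and 144 h shaded. The mitosis median is highest at 72 h (1.58) and 96 h (1.47), and the interferon response median is highest at 24 h (1.30).

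The effect over 120 and 144 h was set against that at 24 h, when 4 samples per arm were taken. The tested difference passed in 158 rows (1.14%), 81 more positive later (0.584%) and 77 more negative (0.555%). Under trimmed-mean scaling the split was 94 and 52. Blocked, 890 rows passed (6.42%), 367 more positive later (2.65%) and 523 more negative (3.77%). Of the 8 libraries of 24 h, 3 had under 5000000 alignments, and with such libraries left out 21 rows passed. That omission also left fewer samples, so depth and sample number cannot be told apart here. It also fell to 64 to 88 rows when control replicate 1 or treated replicate 3 of 120 h, or control replicate 2 or treated replicate 1 of 144 h, was left out.

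Interferon response genes had smaller effects late than at 24 h. Of 32 members, 9 had a more negative effect late than at 24 h (background 0.555%) and none a more positive one. The paired fit called 21 more negative (blocked background 3.77%). The list median was 1.30 at 24 h, 0.30 at 72 h and 0.19 over 120 and 144 h, when ZNFX1 was the 1 member called (0.57). That call was lost without control replicate 3 or treated replicate 2 or 3 of 120 h, or without control replicate 2 or either treated replicate of 144 h (adjusted p = 0.0683 to 0.125). MX1, an antiviral GTPase, averaged 1.47 ± 0.20 RPKM in controls and 18.3 ± 6.1 RPKM in treated samples of 24 h (SD, n = 4 each). At 120 h it measured 1.2, 2.96 and 2.26 RPKM against 2.00, 2.22 and 4.43 RPKM, with overlap, and the change in effect was −2.58 ± 0.45 (limma adjusted p = 0.00132). RSAD2, the antiviral enzyme viperin, averaged 3.67 ± 1.6 against 60.4 ± 4.6 RPKM at 24 h (SD, n = 4 each) and measured 13.7, 7.75 and 5.05 against 5.78, 9.85 and 8.15 RPKM at 120 h. Its change was −3.37 ± 0.58 (limma adjusted p = 0.00132).

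Some hair cell genes were less reduced than at 24 h. In 5 of 43 bundle genes and 4 of 28 synapse genes the effect was more positive later (background 0.584%), and in none was it more negative without the pairing. Blocked, 8 bundle and 7 synapse genes had a more positive effect (background 2.65%), and 1 of each a more negative one (background 3.77%). The list median effect at 24 h and over 120 and 144 h was −1.44 and −0.77 for bundle genes. For synapse genes it was −1.35 and −1.4, so that list median was no less reduced late. The median over members of the difference between effects was 0.71 for bundle and 0.42 for synapse genes. OCM2 averaged 672 ± 170 RPKM in controls and 59.4 ± 12 RPKM in treated samples at 24 h (SD, n = 4 each), and 108 to 123 RPKM in the treated samples of 120 h against 269 to 418 RPKM in controls. Both treated and control levels moved, and the difference between effects was 1.83 ± 0.30 (limma adjusted p = 7.05e-04). The effect on OTOF went from −3.24 at 24 h to −1.82 (adjusted p of the change 0.0146, and 0.277 without shallow libraries). For SS2 it was −5.77 and −4.67 (limma adjusted p of the change 0.521).

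**Figure D5:**
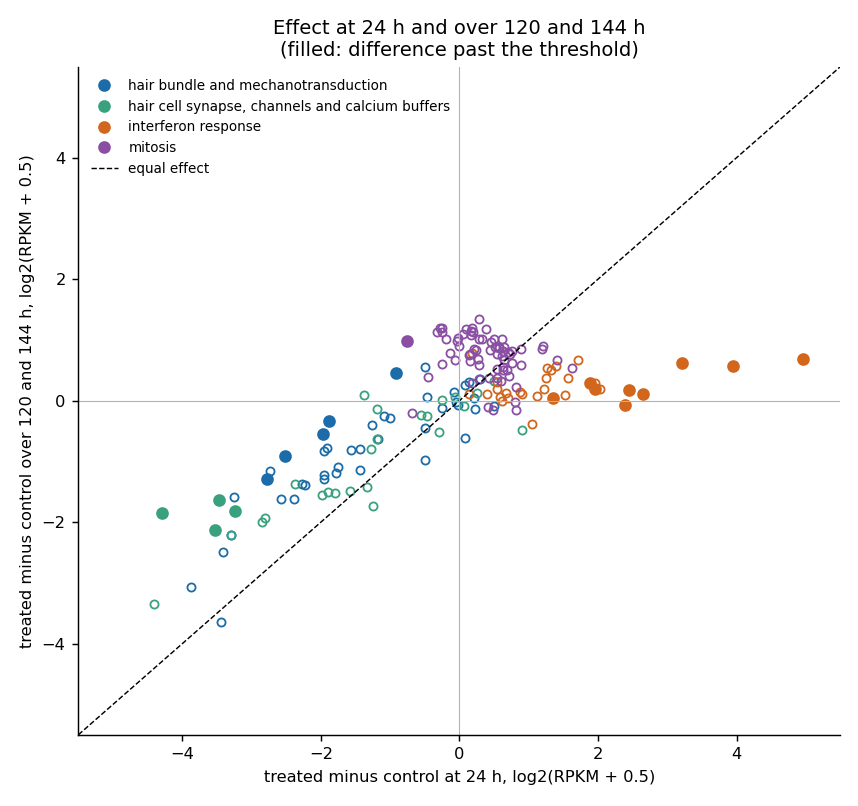
Treated minus control difference at 24 h (x axis) and over 120 and 144 h (y axis), both log2(RPKM + 0.5), for members of 4 lists; filled points passed the test of the difference between the effects. The filled interferon points lie at 1.36 or more on the x axis and between −0.07 and 0.69 on the y axis, and the filled bundle and synapse points lie above the dashed line of equal effects.

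No row differed in effect between 120 and 144 h and 72 h, or between 120 and 144 h and 168 h, by limma with or without the pairing. Without it, 303 and 433 rows respectively had an unadjusted limma p under 0.05, below a share of 0.05 of the rows tested. With the pairing 722 and 876 rows did, above that share. The list medians at 168 h were −0.25 for bundle genes, −0.29 for synapse genes and 0.31 for mitosis genes, set beside −0.77, −1.4 and 0.81 over 120 and 144 h. At 168 h, 1 replicate of each arm had under 5000000 alignments.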

How the data were processed

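RPKM values per gene and library were taken from the table the authors deposited. The unit is not named there and was inferred: in 60.6% of 2150 rows checked, more than 0.9 of the values times the library's alignments lay on whole steps (tolerance 0.05), compared with 10% when the alignments were not used. TopHat 1.4.0 and Partek 6.6 are named per the submitters' processing notes, and the genome build is not given in the sources used here. The deposited RPKM values are relative, so more of 1 transcript means a smaller share for the rest, and reads of near-identical gene copies are uncertain. Another 2 columns could be tied to no sample and stayed out.

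The test covered rows that reached 1 RPKM in 2 or more libraries. The scale was log2(RPKM + 0.5), on which the change of low genes is understated, repeat libraries were averaged, and 22 group means over 56 samples entered 1 model in limma 3.58.1 (moderated by empirical Bayes, trend on; R 4.3.3, statmod 1.5.0), leaving 34 residual degrees of freedom. The effect over both times weighted 120 h by 0.6 and 144 h by 0.4. The script was tested on simulated data. Repeat libraries correlated at 0.984 and 0.986, and separate samples of one arm and time at 0.921 to 0.968.

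Same-numbered samples of both arms had deviations from their group means that correlated at 0.255, 0.199 and 0.432 at 120 h and at 0.743 at 144 h, where both pairs give the same value by construction. They were taken as pairs from this check and the shared number. The labels do not state a pairing. The paired fit, with 17 residual degrees of freedom, is an alternative.

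Genes were named by a rule: the 12 largest rises and falls that passed, moved the same way in all 5 pairs and had a mean of at least 2 RPKM in 1 arm, the 4 largest differences in each direction from each other time, the 4 smallest p-values of each list, and a fixed set. Identifiers, protein entry names and names that start with a digit were passed over. Of the list members described, 10 were chosen after their values were seen (CACNA1D, CDK1, CHRNA9, FSCN2, KCNMA1, MYO15A, MYO3B, MYO6, PTPRQ and RACGAP1). The comparison, the gene lists and the markers were chosen with earlier results of these data known. Alternatives changed the pseudocount, the filter, the scaling, the weights, the repeat libraries, the shallow libraries, the samples that give the spread, and each sample or pair in turn.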

Additional observations from a re-analysis of the deposited data

Results flagged for a closer look

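For 16 of the 160 genes named by the rule, the treatment effect over 120 and 144 h differed from that at 24 h. This was limma's test of the difference itself (adjusted over all rows tested), which 158 of all rows passed (1.14%). The rule named the largest differences among rows that passed this same test, so the count of 16 was partly set by the naming. Values are log2 differences of log2(RPKM + 0.5), late minus early. Groups of 120 and 144 h were too small for a test of single outlying samples. Beside each gene stands the adjusted p with libraries under 5000000 alignments left out, since 3 of the 8 libraries of 24 h were that shallow; their part in these results beyond that omission was not tested.

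Interferon response genes had the opposite sign of change from hair cell genes. ISG12-2, an interferon-induced gene, went from an effect of 4.96 to 0.69, a change of −4.27 (adjusted p = 2.26e-06, and 1.41e-04 without shallow libraries). RSAD2 changed by −3.37 (0.00132, and 0.0159) and MX1 by −2.58 (0.00132, and 2.35e-04). CCK, the gene of the peptide cholecystokinin, went from 3.50 to −1.24, a change of −4.74 (0.0146, and 0.45).

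Hair cell genes were less reduced late than at 24 h in OCM2, by 1.83 (adjusted p = 7.05e-04, and 0.0337 without shallow libraries), OTOF, by 1.42 (0.0146, and 0.277), SLC17A8, by 1.41 (0.0453, and 0.37), and TMC2, by 1.48 (0.0146, and 0.347). The call of SLC17A8 was lost when any 1 of 8 samples was left out (0.0557 to 0.0978). B3GALT4 differed by 2.01 (5.06e-04, and 0.0334) and DCDC2 by 1.55 (0.0137, and 0.306), both still lower in treated samples late.

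The other changes were positive. AMY2A, an amylase, went from −2.37 to 0.65, a change of 3.02 (adjusted p = 5.07e-05, and 0.027 without shallow libraries). NKAIN3 changed by 2.73 (0.0299, and 0.49), ANGPTL7 by 2.72 (0.0254, and 0.437), the leukocyte gene RAC2 by 2.48 (0.00993, and 0.162), FBN1 by 1.35 (0.00721, and 0.27) and the ER chaperone PDIA4 by 0.88 (0.0137, and 0.299). The call of NKAIN3 was lost when any 1 of 5 samples was left out (0.0557 to 0.0811) and that of ANGPTL7 when any 1 of 3 was (0.0502 to 0.0633).

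Among the groups of 4 at 24 h whose levels are printed, 1 of 6 held a sample apart from the others by Dixon's criterion, which chance meets in about 1 of 20 groups. In treated samples of 24 h the lowest RSAD2 level was 53.5 RPKM and the highest 63.2 RPKM, and the gap above the lowest made up 0.913 of that range.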

How the results depend on the processing

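Of the 13862 rows, 493 were called over both times, 369 at 120 h, 72 at 144 h and 158 for the difference from 24 h. With the replicate block, which pairs samples by number, these became 1085, 920, 119 and 890, and 50.8% of the calls over both times were higher in place of 38.5%. The samples of 120 and 144 h alone gave 269, 166 and 18, and 32 at 144 h with the block as well. Libraries of one sample entered as separate samples gave 875 over both times, 1066 at 120 h and 313 for the difference from 24 h. Without libraries under 5000000 alignments there were 114 at 144 h and 21 for the difference from 24 h, and quantile normalization gave 112 at 144 h. Unfiltered, 1 row differed from 168 h. Leaving out 1 sample or, chosen after the data were seen, both arms of 1 replicate gave 238 to 492 over both times, 129 to 361 at 120 h, 7 to 73 at 144 h and 39 to 200 for the difference from 24 h. In each of these the difference between 144 and 120 h, and that from 72 h or 168 h, had 0. The cause of these shifts was not tested. Changed pseudocounts, filters, scaling and weights otherwise kept the count over both times between 384 and 574. Of the genes named, 73 were called over both times. Of these, 43 kept the call in every one of up to 28 alternatives, and none reversed. The other 97 were not called, and 50 of them were called in at least 1 alternative. With 2 samples per arm, 144 h has little power of its own, and low values in the shallow control replicate 1 of 120 h are coarse.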
